A study of Mus musculus with 9 samples.

Results

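Hepatocytes that lacked COX-2 and had been put under endoplasmic reticulum (ER) stress were compared with wild-type hepatocytes that had received vehicle only. The genes described lie off the X and Y chromosomes and had an FPKM of at least 1 in at least 3 of the 6 libraries compared, which held for 11152 of the 54532 genes in the table. FPKM counts sequenced fragments relative to the length of the gene and the size of the library. Of these genes, 9642 were protein-coding.

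The cells were primary hepatocytes of C57BL/6 mice, which the labels call male. Every animal carried the COX-2 fl/fl alleles. The knockout (CKO) animals also carried Alb-Cre, a recombinase under the albumin promoter that directs the deletion to hepatocytes, and their wild-type (WT) littermates lacked it, so the deletion and the presence of Cre cannot be told apart. After 2 hours in 1% serum, CKO cells received 6 μmol/L tunicamycin for 24 hours (CKO Tu), and WT cells received either DMSO (WT DMSO) or the same dose of tunicamycin (WT Tu), with 3 libraries in each group. None of the 9 libraries held CKO cells with vehicle, so genotype and treatment change together between CKO Tu and WT DMSO. The WT Tu libraries were used to sort the genes into those that also differ from vehicle cells in stressed WT cells and those that do not. Whether the 3 libraries in a group are 3 animals is not said in the labels, so every p-value measures the spread between libraries.

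Tunicamycin stops the attachment of N-linked sugars to proteins entering the ER, and unfolded proteins accumulate there. The unfolded protein response then works through sensors in the ER membrane. ATF6 and the IRE1-XBP1 branch raise chaperones and the machinery that removes misfolded proteins, while PERK slows translation and favours the transcription factor ATF4 and its target CHOP. COX-2, the product of Ptgs2, makes the precursor of prostaglandins and is little expressed in resting hepatocytes.

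Each library held between 14897358 and 16001484 fragments assigned to genes. The library size behind the deposited FPKM was not this total and differed by group. It was 1.057 to 1.070 times the total in WT DMSO, 0.948 to 0.984 times in WT Tu and 1.005 to 1.010 times in CKO Tu. Scaling to total fragments, an alternative given below, puts the total in its place. On the first principal component of the 11152 genes, which held 53.0% of the variance, the WT DMSO libraries lay between -31.0 and -29.2, the WT Tu libraries between -5.46 and -4.04, and the CKO Tu libraries between 34.0 and 36.1. The second component set WT Tu replicate 1, at -35.3, away from both other libraries of its group, at -18.9. Sex-linked transcripts went against the labels: Xist, made from the inactive X chromosome of female cells, had at most 3 fragments in a CKO Tu library but 20659 to 33657 in each of the 6 WT libraries. Uty, Kdm5d, Ddx3y and Eif2s3y, which lie on the Y chromosome, together had 3486 to 3633 fragments in each CKO Tu library and 0 in each WT library. Genotype, treatment and this sex-linked pattern cannot be told apart between CKO Tu and WT DMSO, nor genotype and the pattern between CKO Tu and WT Tu. Ptgs2 (chromosome 1, 150100031 to 150108227, mm10) had 1, 1 and 2 fragments in the CKO Tu libraries, 0, 13 and 8 with vehicle and 8, 5 and 5 in stressed WT cells. Its ratio of CKO Tu to WT DMSO was 0.198, with an exact binomial 95% interval of 0.0494 to 0.587 that covers counting error only. By FPKM the ratio was 0.2004, and it was 0.342 without WT DMSO replicate 2 and 0.134 without WT DMSO replicate 1. An exact two-sided permutation test over the libraries gave p = 0.4, where 3 against 3 libraries can reach no less than 0.1. All 12 hepatocyte markers checked were among the genes described, and 8 were higher and 1 lower in CKO Tu than in WT DMSO. Their summed FPKM was 16930 to 18920 in WT DMSO, 16920 to 18320 in WT Tu and 15500 to 16590 in CKO Tu, and most of it was Alb.

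Stressed knockout cells differed from unstressed wild-type cells in many genes, in both directions. Of the 11152 genes, 5648 (50.6%) passed the threshold, an adjusted p below 0.05 from limma on log2(FPKM + 1), of which 2877 (25.8%) were higher and 2771 (24.8%) lower in CKO Tu. The log2 difference was at least 1 in size for 824 of them (7.39%), with 505 (4.53%) higher and 319 (2.86%) lower. In WT Tu against WT DMSO, 3815 of the same genes (34.2%) passed, 1974 (17.7%) higher and 1841 (16.5%) lower. The share of called genes that were higher in CKO Tu was 50.9%, and it was 42.2% under upper-quartile scaling and 42.5% under scaling to total fragments. Both comparisons use the same 3 WT DMSO libraries, so they are not independent of each other. The share of called genes that were higher in WT Tu was 51.7%, and it was 41.3% under upper-quartile scaling and 30.5% under scaling to total fragments, which shifts the median of all genes to -0.12. In the direct comparison of CKO Tu with WT Tu, 4363 genes (39.1%) passed, 2157 (19.3%) higher and 2206 (19.8%) lower. The higher share there was 49.4%, and 58.8% under scaling to total fragments.

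These calls sorted the genes into classes. A difference from WT DMSO was kept where CKO Tu and WT Tu both passed in the same direction, which held for 2542 genes, 1373 higher and 1169 lower. It was lost in 1062 genes, called in WT Tu but not in CKO Tu, and 659 of these also differed between CKO Tu and WT Tu. It was gained in 2895 genes, called in CKO Tu but not in WT Tu, and 2033 of these differed between CKO Tu and WT Tu. In 211 genes both groups differed from WT DMSO but in opposite directions, and 4442 genes were called in neither. The opposite class held 122 genes without WT DMSO replicate 2, 117 without WT DMSO replicate 3 and 117 with no filter on low values. Among the kept genes, 921 differed between CKO Tu and WT Tu, and the difference from WT DMSO was the larger one in CKO Tu for 350 of the higher and 363 of the lower genes. It was the smaller one in CKO Tu for 129 and 79, or 208 in all, which became 110, 94 and 112 without CKO Tu replicate 1, 2 and 3 and 120 with no filter on low values. With only the 2 groups of each comparison in the fit, the lost class held 634 genes, of which 419 differed between CKO Tu and WT Tu.

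**Figure D1:**
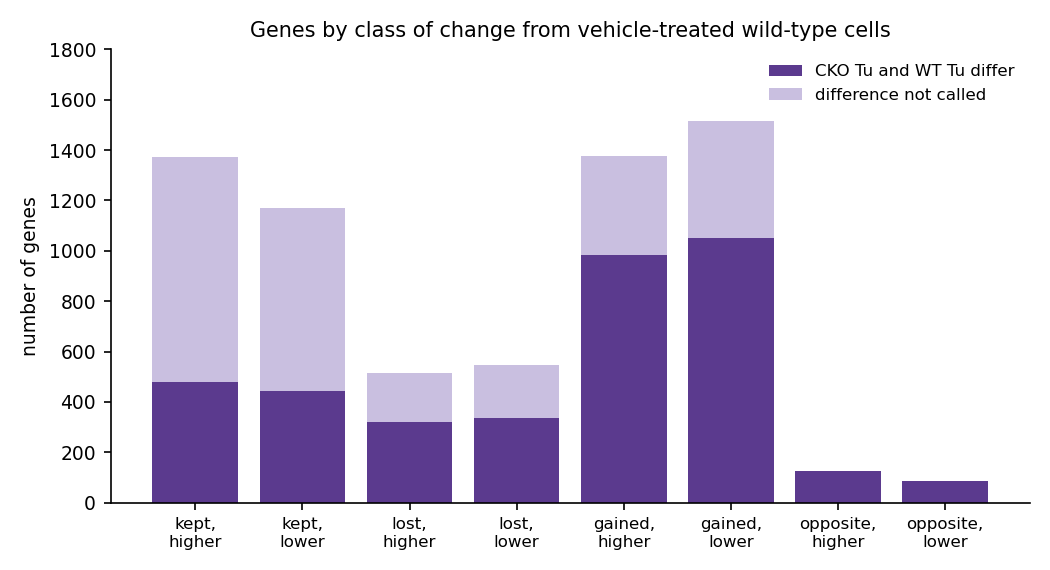
Number of genes (vertical axis) in each class of difference from vehicle-treated wild-type cells, split by direction, where the direction of the lost class is that of WT Tu and the direction of the others that of CKO Tu. Dark parts count genes that also differ between CKO Tu and WT Tu; they make up 984 of 1378 gained higher genes and 479 of 1373 kept higher genes.

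The ER folding machinery kept its rise. Of the 23 chaperones and folding enzymes listed, 22 rose in CKO Tu and 22 in WT Tu, and the median difference from WT DMSO was 2.71 in CKO Tu and 2.64 in WT Tu on the log2 scale, against medians of -0.0015 and -0.010 over all the genes. In the direct comparison 5 of the 23 were higher and 3 lower in CKO Tu. The member outside the 22 was Sil1, the nucleotide exchange factor of BiP, with FPKM of 27.2, 28.3 and 31.5 with vehicle, 22.8, 28.8 and 29.9 in stressed WT cells and 26, 26.3 and 24.4 in stressed CKO cells.

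Hspa5 (chromosome 2, 34771970 to 34777547), which encodes the main ER chaperone BiP, had FPKM of 561, 578 and 589.8 with vehicle, 5744, 4968 and 5224 in stressed WT cells and 4753, 4795 and 5036 in stressed CKO cells. Every stressed library lay above every vehicle library, and the stressed groups overlapped. Its log2 difference from WT DMSO in CKO Tu was 3.07 ± 0.07 (standard error from limma, as for each log2 difference here; adjusted p = 9.1e-09), an 8.44-fold ratio of means, and the difference between CKO Tu and WT Tu was -0.13 ± 0.07 (adjusted p = 0.17). That last difference became 0.27 (adjusted p = 0.0029) under quantile normalization. Hsp90b1, the ER member of the Hsp90 family, had FPKM of 87.7, 70 and 68.8 with vehicle, 2138, 1567 and 1652 in stressed WT cells and 1419, 1493 and 1624 in stressed CKO cells. It rose 20-fold in CKO Tu, a log2 difference of 4.31 ± 0.13 (adjusted p = 5.2e-08). Sdf2l1, a partner of BiP and its J-proteins, had FPKM of 9.46, 7.5 and 8.92 with vehicle, 392, 439 and 426 in stressed WT cells and 376, 409.6 and 422 in stressed CKO cells. This was the largest kept rise of the folding list in CKO Tu, 5.39 ± 0.09 (adjusted p = 9.2e-10), and the difference from WT Tu was -0.06 ± 0.09 (adjusted p = 0.64).

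The 8 members that differed between the stressed groups went in both directions. Ero1l, the oxidase that recharges protein disulfide isomerases, had FPKM of 20.2, 21.9 and 21.8 with vehicle, 43.7, 34.5 and 34.9 in stressed WT cells and 84, 86.1 and 66.1 in stressed CKO cells. The 3 groups did not overlap, and CKO Tu exceeded WT Tu by 1.04 ± 0.12 (adjusted p = 0.00026). Dnajb11, a J-protein that hands clients to BiP, rose by 2.75 ± 0.08 in CKO Tu and by 2.35 ± 0.08 in WT Tu, with a difference of 0.40 ± 0.08 (adjusted p = 0.0055). P4hb, a protein disulfide isomerase, had the same sign of difference, 0.33 ± 0.05 (adjusted p = 0.00092), which was 0.01 (adjusted p = 0.88) under quantile normalization. Dnajb9, which represses IRE1, went the other way: its FPKM was 80.6, 79.2 and 81.6 with vehicle, 527, 392 and 410 in stressed WT cells and 322, 324 and 308 in stressed CKO cells, a difference of -0.47 ± 0.10 between the stressed groups (adjusted p = 0.0065). Pdia4, another disulfide isomerase, was also lower in CKO Tu than in WT Tu by 0.24 ± 0.06 (adjusted p = 0.014). That call was lost without CKO Tu replicate 1 (-0.21, adjusted p = 0.06) or replicate 2 (-0.23, adjusted p = 0.051), and with no filter on low values (adjusted p = 0.067).

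Promoter sequence is shown for genes of the folding and ER-associated degradation lists, because most genes of both lists rose in both stressed groups. The ER stress response element (ERSE), read on either strand as CCAAT and CCACG with 9 bases of any kind between them, was searched between 250 bases before and 50 bases after each start in RefSeq promoters of GRCm38.p6. It was present in 39 of 32851 promoters (0.119%) and in 16 of the 7863 described genes that had a promoter in that table (0.203%). Of 18 folding genes with a promoter, 7 held it, as did 2 of 16 genes of ER-associated degradation and 0 of 22 genes of ER entry and vesicle transport. It was in 13 of 1039 kept higher genes, 0 of 858 kept lower genes, 2 of 1021 gained higher genes, 1 of 1156 gained lower genes, 0 of 811 lost genes, 0 of 157 opposite genes and 0 of 2821 genes called in neither comparison. The related ERSE-II, ATTGG and CCACG with 1 base between them, was in 12 of 32851 promoters, among them those of Herpud1 and Dnajb11. Windows of 12 bases on each side of the element follow for Hspa5 and for the 4 matching genes with the largest rises in CKO Tu, 5′ to 3′ along the gene, with the fixed letters of the element in capitals.
Hspa5, chr2:34772013-34772055, plus strand: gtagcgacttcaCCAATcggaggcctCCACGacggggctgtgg
Hsp90b1, chr10:86705626-86705668, minus strand: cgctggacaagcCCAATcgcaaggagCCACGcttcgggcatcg
Creld2, chr15:88819508-88819550, plus strand: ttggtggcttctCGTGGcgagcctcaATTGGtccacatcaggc
Derl3, chr10:75893230-75893272, plus strand: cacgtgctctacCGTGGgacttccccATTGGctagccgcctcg
Herpud1, chr8:94386365-94386399, plus strand, ERSE-II: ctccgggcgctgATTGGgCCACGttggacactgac
In Creld2 and Derl3 the element lies on the opposite strand of the gene, so its letters read as the reverse complement. A match describes the letters in this window and does not show binding.

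**Figure D2:**
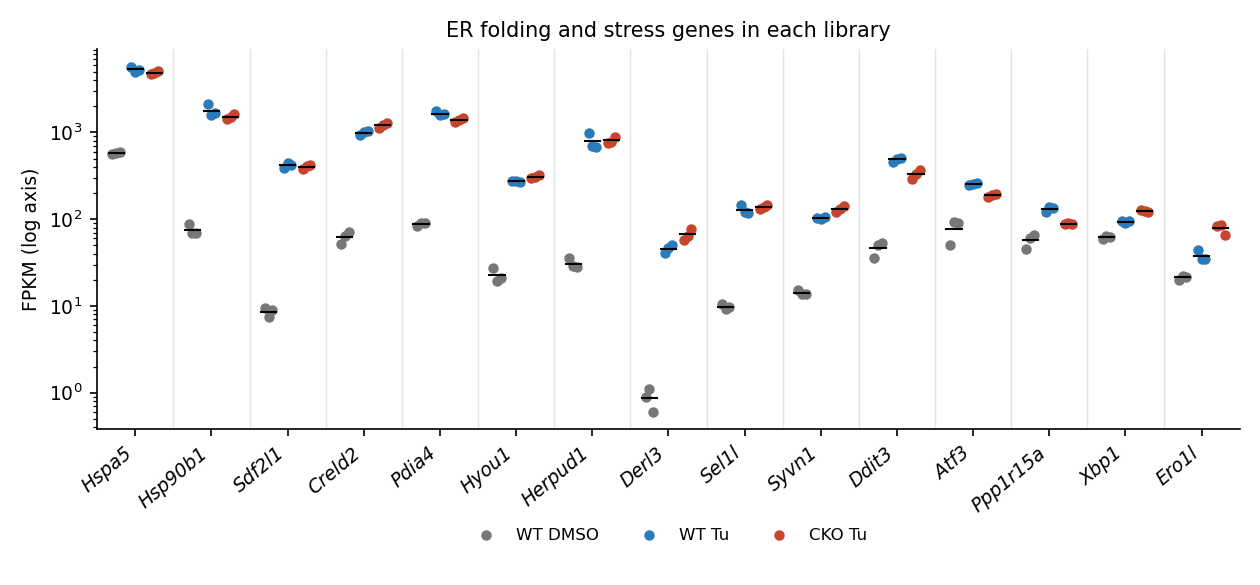
FPKM on a log axis of 15 ER folding and stress genes in each of the 9 libraries; points are libraries, coloured by group, and black lines are group means. The stressed groups lie close together for Hspa5, Sdf2l1, Herpud1 and Sel1l, CKO Tu lies above WT Tu for Ero1l and Xbp1, and below it for Ddit3 and Ppp1r15a.

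ER-associated degradation, which returns misfolded proteins to the cytosol for destruction, rose in both stressed groups, with some members higher in CKO Tu. Of 21 genes, 14 rose and 2 fell in CKO Tu and 16 rose in WT Tu, and in the direct comparison 8 were higher and 2 lower in CKO Tu. Derl3, a channel component that carries the element printed above, had FPKM of 0.881, 1.1 and 0.604 with vehicle, 40.4, 46.9 and 49.8 in stressed WT cells and 58.1, 64.1 and 77.8 in stressed CKO cells. It rose by 5.18 ± 0.13 in CKO Tu (adjusted p = 2.2e-08), and CKO Tu exceeded WT Tu by 0.53 ± 0.13 (adjusted p = 0.013). That excess had an adjusted p of 0.051 with a pseudocount of 0.1. Herpud1, a scaffold of the degradation complex, had FPKM of 35.3, 28.6 and 28.4 with vehicle, 983, 695 and 682 in stressed WT cells and 759, 777 and 896 in stressed CKO cells. The stressed groups overlapped, and their difference was 0.06 ± 0.15 (adjusted p = 0.78). Syvn1, the ubiquitin ligase of the complex, was higher in CKO Tu than in WT Tu by 0.33 ± 0.07 (adjusted p = 0.0056), while its adaptor Sel1l differed by 0.11 ± 0.09 (adjusted p = 0.38). The Sel1l difference passed without WT Tu replicate 1, at 0.21 (adjusted p = 0.028).

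Protein entry into the ER and transport out of it followed. Of 29 listed genes among those described, 26 rose in CKO Tu, 0 fell, and 27 rose in WT Tu, with medians of 1.01 and 1.12. Between the stressed groups 3 were higher and 6 lower in CKO Tu (7 and 1 when scaled to total fragments). Kdelr3, a receptor that returns escaped chaperones to the ER, had FPKM of 1.78, 2.88 and 2.06 with vehicle, 6.72, 6.66 and 7.92 in stressed WT cells and 14.1, 13.8 and 9.81 in stressed CKO cells. It was higher in every CKO Tu library than in any WT Tu library, by 0.73 ± 0.16 (adjusted p = 0.0067). Spcs3, a subunit of the signal peptidase, rose by 2.06 ± 0.09 in CKO Tu and 1.93 ± 0.09 in WT Tu. Among 32 genes of N-glycosylation, the step that tunicamycin blocks, 17 rose and 6 fell in CKO Tu, and 18 rose and 2 fell in WT Tu. Dpagt1, the enzyme that tunicamycin inhibits, had FPKM of 11.3, 9.46 and 10.5 with vehicle, 20.6, 16.8 and 18.1 in stressed WT cells and 21.6, 20.1 and 23.1 in stressed CKO cells, a rise of 0.99 ± 0.09 in CKO Tu (adjusted p = 3.5e-05). Uap1, which makes the sugar donor UDP-GlcNAc, rose by 1.37 ± 0.04 in CKO Tu and 1.31 ± 0.04 in WT Tu.

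The sensors of the response did not move alike. Of 10 sensors and ER-bound factors, 6 rose and 1 fell in CKO Tu and 6 rose in WT Tu. Xbp1, the transcription factor activated by IRE1 splicing, had FPKM of 59.8, 63.3 and 62.1 with vehicle, 94.7, 90.2 and 94.3 in stressed WT cells and 129, 124 and 122 in stressed CKO cells. The 3 groups did not overlap, and CKO Tu was above WT Tu by 0.42 ± 0.05 (adjusted p = 0.00027). Eif2ak3, which encodes PERK, rose by 1.61 ± 0.07 in CKO Tu and 1.28 ± 0.07 in WT Tu, a difference of 0.34 ± 0.07 (adjusted p = 0.0042). Atf6 rose by 1.12 ± 0.12 in CKO Tu and differed by -0.14 ± 0.12 between the stressed groups (adjusted p = 0.37). Ern1, which encodes IRE1, had FPKM of 46.9, 48 and 46.6 with vehicle, 46.8, 47.4 and 48.9 in stressed WT cells and 46.8, 47.3 and 47.8 in stressed CKO cells, and did not pass in any of the 3 comparisons.

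Targets of PERK and ATF4 went both ways, in shares near those of all the genes described. Of 20 genes, 6 rose and 6 fell in CKO Tu, and 5 rose and 5 fell in WT Tu (3 and 7 when scaled to total fragments). Ddit3, which encodes CHOP, had FPKM of 35.6, 50.1 and 53.4 with vehicle, 457, 498 and 507 in stressed WT cells and 289, 332 and 373 in stressed CKO cells. It kept a rise of 2.83 ± 0.15 in CKO Tu (adjusted p = 1.2e-06), and every CKO Tu library lay below every WT Tu library, by 0.56 ± 0.15 (adjusted p = 0.017). The second of these calls was lost without CKO Tu replicate 1 (-0.47, adjusted p = 0.065) and with no filter on low values (adjusted p = 0.051). Ppp1r15a, the phosphatase subunit that restores translation, had FPKM of 45.2, 60 and 65.4 with vehicle, 122, 138 and 136 in stressed WT cells and 86.8, 91 and 88.9 in stressed CKO cells, and CKO Tu was lower than WT Tu by 0.56 ± 0.12 (adjusted p = 0.0064). Atf4 itself had FPKM of 204, 229 and 239.6 with vehicle, 216, 297 and 305 in stressed WT cells and 347, 342 and 342 in stressed CKO cells. It rose in CKO Tu by 0.62 ± 0.12 (adjusted p = 0.003), while the WT Tu difference of 0.27 ± 0.12 had an adjusted p of 0.13 and passed without WT Tu replicate 1 (0.43, adjusted p = 0.0018). Gdf15, a secreted stress signal, had FPKM of 121, 169.5 and 169.6 with vehicle, 115, 158 and 180.1 in stressed WT cells and 58.5, 62.1 and 61 in stressed CKO cells. Only the CKO Tu libraries lay apart from the others, lower than WT Tu by 1.28 ± 0.17 (adjusted p = 0.00063). Fgf21, a hormone of the fasting liver, fell by 1.22 ± 0.16 in CKO Tu (adjusted p = 0.00027) and by 0.73 ± 0.16 in WT Tu (adjusted p = 0.0082).

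Amino acid supply and aminoacyl-tRNA synthetases, which ATF4 is known to raise, were more often lower than higher in CKO Tu against WT Tu. Of 19 supply genes, 2 were higher and 12 lower in CKO Tu than in WT Tu, and of 20 synthetases 0 were higher and 9 lower (1 higher and 9 lower when scaled to total fragments). Against WT DMSO, 5 supply genes rose and 9 fell in CKO Tu, while 7 rose and 3 fell in WT Tu (5 and 5 when scaled to total fragments). Of the synthetases, 5 rose and 6 fell in CKO Tu, and 12 rose and 1 fell in WT Tu (5 and 2 when scaled to total fragments). Asns, asparagine synthetase, had FPKM of 73.4, 74.6 and 72.8 with vehicle, 81.3, 71.3 and 67.5 in stressed WT cells and 52.3, 52.9 and 55.4 in stressed CKO cells. The wild-type groups overlapped and CKO Tu lay below both, by 0.45 ± 0.07 against WT DMSO (adjusted p = 0.00062). Psat1, an enzyme of serine synthesis, had FPKM of 79.5, 77.8 and 77.5 with vehicle, 108, 93.2 and 92.2 in stressed WT cells and 59.7, 59.7 and 61.3 in stressed CKO cells. It was higher than vehicle in WT Tu by 0.31 ± 0.06 (adjusted p = 0.0055) and lower in CKO Tu by 0.37 ± 0.06 (adjusted p = 0.0012). Slc7a1, a carrier of basic amino acids, had its WT Tu rise of 0.60 ± 0.06 (adjusted p = 9e-05) absent from the calls in CKO Tu, with FPKM of 8.42, 9.14 and 8.78 with vehicle, 14.4, 13.4 and 13.6 in stressed WT cells and 9.03, 8.88 and 9.59 in stressed CKO cells. Wars, tryptophanyl-tRNA synthetase, kept a rise of 1.42 ± 0.06 in CKO Tu and 1.47 ± 0.06 in WT Tu. Nars, the synthetase for asparagine, was higher in WT Tu than in WT DMSO by 0.31 ± 0.05 (adjusted p = 0.0013), and CKO Tu was lower than WT Tu by 0.36 ± 0.05 (adjusted p = 0.00053).

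The composite site read by ATF4, TGATGNAA on either strand, was in 1304 of 32851 promoters (3.97%) and in 183 of the 7863 described genes with a promoter (2.33%). It was in 5 of 12 synthetase promoters, 4 of 15 supply promoters and 5 of 17 promoters of the PERK and ATF4 list. The 3 genes shown carry the same fixed letters but did not move alike: Atf3 rose in both stressed groups, Slc1a4 fell in both, and Asns fell in CKO Tu and did not pass in WT Tu. Capitals mark the fixed letters of the site.
Atf3, chr1:191183424-191183455, minus strand: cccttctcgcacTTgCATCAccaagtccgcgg
Slc1a4, chr11:20332698-20332729, minus strand: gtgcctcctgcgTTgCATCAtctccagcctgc
Asns, chr6:7693213-7693244, minus strand: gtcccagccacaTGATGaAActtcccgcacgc
Atf3, a stress-induced transcription factor, had FPKM of 50.6, 91.7 and 89.2 with vehicle, 247, 252 and 261 in stressed WT cells and 181, 188 and 196 in stressed CKO cells, and rose by 1.32 ± 0.19 in CKO Tu (adjusted p = 0.00048). Slc1a4, a neutral amino acid carrier, fell by 1.00 ± 0.07 in CKO Tu (adjusted p = 9.6e-06) and by 0.72 ± 0.07 in WT Tu (adjusted p = 0.00013).

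Targets of YAP and SRF, factors that respond to cell shape and actin, were among the kept falls. Of 17 described, 0 rose and 12 fell in CKO Tu, and 1 rose and 13 fell in WT Tu. Cyr61 (chromosome 3, 145646976 to 145649981), a secreted matrix protein and YAP target, had FPKM of 271, 268 and 250.5 with vehicle, 57, 64.2 and 67.4 in stressed WT cells and 32.7, 31.9 and 32 in stressed CKO cells. The 3 groups stood in that order without overlap. It fell by 2.99 ± 0.07 in CKO Tu (adjusted p = 1e-08) and was lower than WT Tu by 0.94 ± 0.07 (adjusted p = 1.9e-05). Ctgf, its relative, had FPKM of 4.65, 4.01 and 4.21 with vehicle, 0.737, 0.355 and 0.521 in stressed WT cells and 0.469, 0.541 and 0.527 in stressed CKO cells, so the stressed groups overlapped. Amotl2, a YAP inhibitor that YAP also induces, fell by 1.64 ± 0.06 in CKO Tu and by 0.82 ± 0.06 in WT Tu, a difference of -0.81 ± 0.06 (adjusted p = 3.1e-05).

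Of 22 described mesenchymal genes, 4 rose and 15 fell in CKO Tu and 1 rose and 15 fell in WT Tu. Vim, the intermediate filament vimentin, had FPKM of 14.9, 13.6 and 13.3 with vehicle, 6.93, 7.03 and 5.53 in stressed WT cells and 4.81, 7.05 and 4.4 in stressed CKO cells, a fall of 1.24 ± 0.15 in CKO Tu (adjusted p = 0.00015). Tpm1, an actin-binding tropomyosin, fell by 1.47 ± 0.07 in CKO Tu and by 1.18 ± 0.07 in WT Tu. Fn1, fibronectin, differed: its FPKM was 47.1, 65 and 58.3 with vehicle, 16.5, 19.7 and 19.8 in stressed WT cells and 47.1, 44.7 and 39.8 in stressed CKO cells. The CKO Tu libraries overlapped the vehicle libraries. The Fn1 fall in CKO Tu, 0.36 ± 0.12 (adjusted p = 0.038), was smaller than the 1.55 ± 0.12 of WT Tu, and CKO Tu exceeded WT Tu by 1.19 ± 0.12 (adjusted p = 0.00016). The Fn1 fall in CKO Tu was lost without WT DMSO replicate 2 (-0.25, adjusted p = 0.13) or replicate 3 (-0.33, adjusted p = 0.1), and without CKO Tu replicate 2 (-0.37, adjusted p = 0.075) or replicate 3 (-0.29, adjusted p = 0.12). Snai2, a transcription factor of epithelial-mesenchymal transition, rose, with FPKM of 1.18, 1.86 and 1.41 with vehicle, 4.07, 2.14 and 3.02 in stressed WT cells and 4.8, 6 and 5.49 in stressed CKO cells (1.38 ± 0.17, adjusted p = 0.00022). Of 24 epithelial and junction genes, 4 rose and 11 fell in CKO Tu. Cgn, the tight-junction protein cingulin, was lower in every stressed library, going from FPKM of 22.2, 25.2 and 23.8 with vehicle to 7.84, 11.1 and 9.94 in stressed WT cells and 2.21, 2.91 and 2.81 in stressed CKO cells. The CKO Tu fall of 2.77 ± 0.12 (adjusted p = 4.5e-07) exceeded that of WT Tu by 1.54 ± 0.12 (adjusted p = 4e-05).

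Transcripts of endothelial cells moved with these matrix and cytoskeleton genes. The summed FPKM of 12 endothelial markers was 13.6 to 14.5 in WT DMSO, 6.12 to 7.39 in WT Tu and 5.03 to 5.23 in CKO Tu, and 4 of the 5 among the genes described fell in CKO Tu. Pecam1, an endothelial adhesion molecule, had FPKM of 1.35, 1.36 and 1.46 with vehicle, 0.553, 0.653 and 0.783 in stressed WT cells and 0.195, 0.238 and 0.19 in stressed CKO cells. Such a further fall was not general: 1 of the 5 was lower and 0 higher in CKO Tu than in WT Tu, with a median difference of -0.083. Tek, a listed marker outside the genes described, had mean FPKM of 0.827 in WT DMSO, 1.01 in WT Tu and 0.635 in CKO Tu. In bulk RNA, fewer cells of a type and less RNA per cell cannot be told apart, and the part of these cells in the falls above was not tested. Of the 12 Kupffer cell markers, the defining gene Adgre1 had 24 fragments summed over the vehicle libraries, 7 over WT Tu and 0 over CKO Tu, Vsig4 had 0 throughout, and 8 were at 0 in all CKO Tu libraries. Lyz2 had 94, 9 and 10 fragments in these groups, Mpeg1 125, 45 and 48, and Csf1r 70, 24 and 28. Cd68, which other cells also express, went the other way, with 5041, 6049 and 5860 fragments. The summed FPKM of the list was 75.4 to 93.2 in WT DMSO, 96.9 to 115 in WT Tu and 92.7 to 106.9 in CKO Tu. Most of it was Cd68, with mean FPKM of 83.1, 107 and 100. Of the 10 stellate cell markers, Lrat, Des and Col1a1 had at most 9 fragments summed over any group. Others in that list were not near 0. Ecm1 had 688 fragments in WT DMSO, 559 in WT Tu and 572 in CKO Tu, and Reln had 150, 129 and 2095.

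Chemokines and NF-kB genes were mostly lower in CKO Tu. Of 20 described genes, 3 rose and 11 fell in CKO Tu and 1 rose and 10 fell in WT Tu, and in the direct comparison 3 were higher and 10 lower in CKO Tu. Cxcl1, a neutrophil chemokine, had FPKM of 56.9, 59.9 and 47.3 with vehicle, 22, 16.2 and 18.4 in stressed WT cells and 7.8, 8.22 and 7.42 in stressed CKO cells. It fell in both stressed groups and was lower in CKO Tu than in WT Tu by 1.17 ± 0.12 (adjusted p = 0.00014). Cxcl2, a closely related chemokine, had FPKM of 21.6, 49.9 and 40.4 with vehicle, 33.1, 31.3 and 33.7 in stressed WT cells and 4.45, 4.15 and 3.74 in stressed CKO cells. It fell in CKO Tu by 2.83 ± 0.24 (adjusted p = 2.4e-05), and the WT Tu difference of -0.11 ± 0.24 (adjusted p = 0.77) passed only without WT DMSO replicate 1 (-0.45, adjusted p = 0.014). Ccl2, which attracts monocytes, fell in both, by 2.34 ± 0.14 in CKO Tu and 2.14 ± 0.14 in WT Tu, with a difference of -0.20 ± 0.14 (adjusted p = 0.3). Icam1, a leukocyte adhesion molecule, was lower in CKO Tu than in WT Tu by 0.59 ± 0.08 (adjusted p = 0.00089).

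The lost class held genes that passed against vehicle in stressed wild-type cells and not in stressed knockout cells. Il23a (chromosome 10, 128296139 to 128298752), the p19 subunit of interleukin-23, had FPKM of 1.42, 4.35 and 3.16 with vehicle, 18.5, 17.9 and 24.4 in stressed WT cells and 1.48, 1.84 and 3.27 in stressed CKO cells. The CKO Tu libraries overlapped the vehicle libraries and lay below every WT Tu library, by 2.76 ± 0.30 (adjusted p = 0.00019). This was the largest difference between the stressed groups among the 1062 lost genes, and the difference from WT DMSO in CKO Tu was -0.28 ± 0.30 (adjusted p = 0.47). Pdk4, a kinase that holds back pyruvate oxidation, had FPKM of 8.24, 10.5 and 11.2 with vehicle, 24.4, 21.4 and 23.3 in stressed WT cells and 12.5, 11.5 and 11.1 in stressed CKO cells. It was lower in CKO Tu than in WT Tu by 0.92 ± 0.10 (adjusted p = 0.00026). Lyst, a regulator of lysosome size, and Star, which delivers cholesterol to mitochondria, followed the same course, with CKO Tu lower than WT Tu by 1.18 ± 0.11 (adjusted p = 8.4e-05) and by 0.76 ± 0.09 (adjusted p = 0.00027).

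Other lost genes were lower than vehicle in WT Tu. Cebpa, a transcription factor of mature hepatocytes, had FPKM of 79.4, 50.6 and 55.2 with vehicle, 20.9, 29.7 and 30.9 in stressed WT cells and 51.7, 50.9 and 46.8 in stressed CKO cells, and CKO Tu exceeded WT Tu by 0.87 ± 0.18 (adjusted p = 0.0059). Cdh1, the epithelial cadherin, had FPKM of 20.8, 23.3 and 26.2 with vehicle, 14.2, 15.9 and 17.5 in stressed WT cells and 26.7, 29.7 and 22.6 in stressed CKO cells, an excess over WT Tu of 0.69 ± 0.12 (adjusted p = 0.0022). Hspb1, a small heat shock protein, fell by 0.85 ± 0.11 in WT Tu (adjusted p = 0.0004) and differed from WT DMSO by 0.03 ± 0.11 in CKO Tu (adjusted p = 0.85). Hhex, a factor of liver development, had FPKM of 24, 18.1 and 17.3 with vehicle, 8.76, 8.15 and 10.8 in stressed WT cells and 25.1, 23.5 and 25.5 in stressed CKO cells. Its CKO Tu difference from vehicle, 0.32 ± 0.13 (adjusted p = 0.071), passed without WT DMSO replicate 1 (0.46, adjusted p = 0.0096). Gclc, the rate-limiting enzyme of glutathione synthesis, had FPKM of 380.3, 195 and 206 with vehicle, 126, 121 and 126 in stressed WT cells and 329.9, 274 and 303 in stressed CKO cells. WT DMSO replicate 1 was high for Gclc, and without it the CKO Tu difference from vehicle was 0.59 (adjusted p = 0.00074), so its place in the lost class rests on that library.

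**Figure D3:**
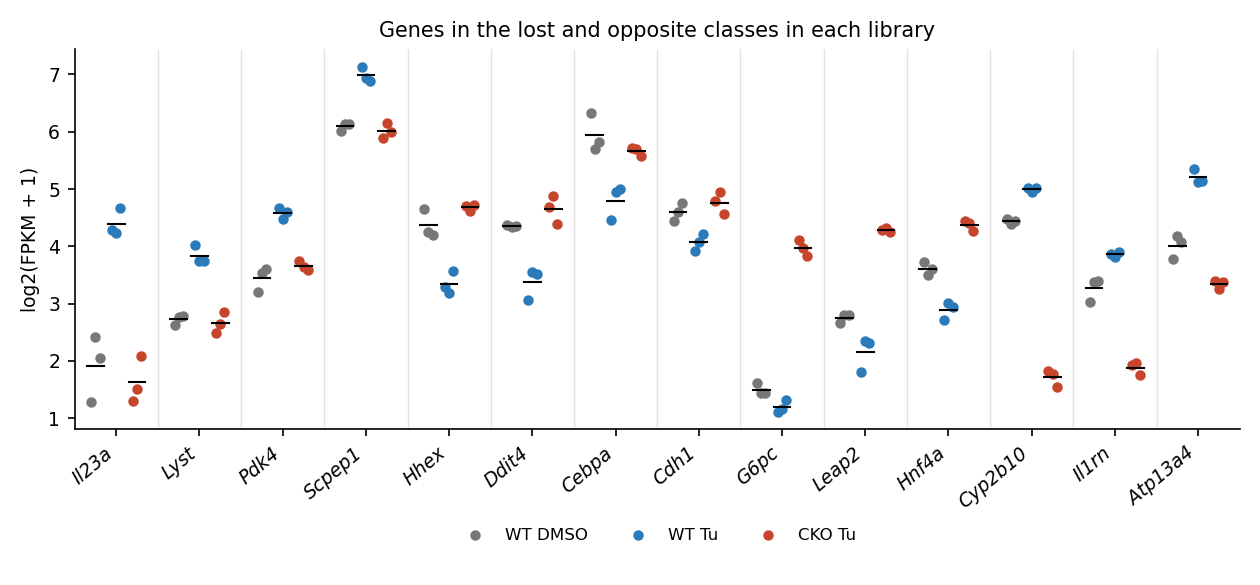
Levels as log2(FPKM + 1) in each of the 9 libraries for 8 genes of the lost class (Il23a to Cdh1) and 6 of the opposite class (G6pc to Atp13a4); points are libraries and black lines group means. For Il23a, Lyst, Pdk4 and Scpep1 the WT Tu libraries lie above both other groups, and for Hnf4a the CKO Tu libraries lie above and the WT Tu libraries below WT DMSO.

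The gained class held acute phase, hepatocyte-specific and sex-biased genes. Of 26 acute phase genes, 20 rose and 1 fell in CKO Tu, 6 rose and 1 fell in WT Tu (4 and 3 when scaled to total fragments), and 15 were higher and 2 lower in CKO Tu than in WT Tu. Hamp (chromosome 7, 30942368 to 30944032), the iron hormone hepcidin, had FPKM of 0.918, 4 and 3.25 with vehicle, 3.26, 2.79 and 3.96 in stressed WT cells and 111, 105 and 65 in stressed CKO cells. The wild-type groups overlapped, and the rise in CKO Tu was 4.74 ± 0.34 (adjusted p = 8.1e-06); Hamp has a close copy in the mouse, so the split of fragments between them is uncertain. Saa3, a serum amyloid A protein and also one of a family of similar genes, had FPKM of 6.64, 6.54 and 8.41 with vehicle, 6.74, 5.97 and 6.52 in stressed WT cells and 53.1, 51.5 and 46.7 in stressed CKO cells, a rise of 2.65 ± 0.10 (adjusted p = 1.4e-07). Serpina3n, a protease inhibitor, rose by 1.56 ± 0.07 in CKO Tu and differed by -0.06 ± 0.07 in WT Tu (adjusted p = 0.54). The fibrinogen genes Fga and Fgb rose by 1.21 ± 0.16 and 0.99 ± 0.12 in CKO Tu. Receptors and feedback genes of these signals did not all move alike. Il1r1, the interleukin-1 receptor, rose by 1.00 ± 0.10 (adjusted p = 4.2e-05) and Socs3, a feedback inhibitor of cytokine receptors, by 1.10 ± 0.22 (adjusted p = 0.0027). Il1rn, which encodes the antagonist of that receptor, was lower in CKO Tu than in WT DMSO and is given below with the opposite class.

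Among transcription factors of the hepatocyte, those that differed between the stressed groups were higher in CKO Tu. Of 23 described, 13 were higher and 0 lower in CKO Tu than in WT Tu, while against WT DMSO 11 rose and 1 fell in CKO Tu and 3 rose and 7 fell in WT Tu. When scaled to total fragments these were 9 and 3 in CKO Tu and 1 and 11 in WT Tu. Nr1h4, the bile acid receptor FXR, rose by 0.98 ± 0.09 in CKO Tu and 0.54 ± 0.09 in WT Tu. Cebpd, a factor of the acute phase, had FPKM of 0.938, 1.6 and 1.57 with vehicle, 0.807, 1.24 and 0.976 in stressed WT cells and 3.7, 3.2 and 3.64 in stressed CKO cells, a rise of 0.94 ± 0.14 (adjusted p = 0.00047). Nr1i2, the drug-sensing receptor PXR, rose by 0.81 ± 0.11 (adjusted p = 0.00028).

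Plasma proteins moved both ways. Of 47 described, 18 rose and 20 fell in CKO Tu and 3 rose and 12 fell in WT Tu, and 27 were in the gained class. Apoa1, the main protein of high-density lipoprotein, had FPKM of 374, 484 and 504 with vehicle, 311, 440.1 and 446 in stressed WT cells and 1432, 1341 and 1272 in stressed CKO cells, a rise of 1.58 ± 0.16 (adjusted p = 5.1e-05). C8b and C9, of the terminal complement complex, rose by 1.65 ± 0.10 and 1.64 ± 0.07. Alb, albumin, had FPKM of 13550, 15040 and 14670 with vehicle, 14990, 13510 and 14330 in stressed WT cells and 10600, 10160 and 10060 in stressed CKO cells. It fell by 0.49 ± 0.07 in CKO Tu (adjusted p = 0.00051), and the fall was not called under quantile normalization (-0.17, adjusted p = 0.11) or with no filter on low values (adjusted p = 0.44).

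Some enzymes of gluconeogenesis and amino acid breakdown were among the larger gained rises, but their list moved both ways. In the direct comparison 11 of its genes were higher and 9 lower in CKO Tu than in WT Tu. The genes named below all come from those that rose. Of 32 genes of the urea cycle, amino acid breakdown and gluconeogenesis, 13 rose and 12 fell in CKO Tu (12 and 12 under each other scaling), and 15 were gained. Tat, tyrosine aminotransferase, had FPKM of 15.7, 19.5 and 21.1 with vehicle, 16.1, 20.2 and 22.2 in stressed WT cells and 123, 108 and 94.7 in stressed CKO cells. The wild-type groups overlapped and the CKO Tu libraries lay 2.48 ± 0.15 above WT DMSO (adjusted p = 2.5e-06). Pck1, the committing enzyme of gluconeogenesis, had FPKM of 2.96, 5.87 and 6.06 with vehicle, 4.63, 6.09 and 6.08 in stressed WT cells and 19.8, 21.4 and 14 in stressed CKO cells, a rise of 1.73 ± 0.24 (adjusted p = 0.00034). Cps1, the first enzyme of the urea cycle, rose by 0.85 ± 0.11 in CKO Tu and Arg1, its last, by 1.10 ± 0.11.

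The largest rise and the largest fall of the comparison with WT DMSO were in genes known to differ between male and female mouse liver, a difference set by the pattern of growth hormone. Of 26 described male-biased genes, 25 rose in CKO Tu, and of 17 described female-biased genes 1 rose and 14 fell. In WT Tu 1 male-biased gene rose and 2 fell, and 2 female-biased genes rose and 1 fell. A gene off in wild-type cells entered through the CKO Tu libraries alone: without any 1 of these libraries 14 of the 26 male-biased genes passed the filter, with medians of 2.09 to 2.48. In the same way, a gene at 0 in CKO Tu, such as Cyp2b9 or Sult2a1, entered through the WT DMSO libraries alone. Its fall was therefore partly set by the rule. Of the 35 listed female-biased genes, 11 had 0 fragments in CKO Tu. Of the lists, 14 of 40 listed male-biased and 18 of 35 listed female-biased genes were not among those described, so these counts describe the members that passed. They move with the Xist and Y-linked levels given above, and the part of that pattern in each result was not tested. Without these genes the comparison called 2849 genes higher and 2755 lower.

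Mup7 (chromosome 4, 60066469 to 60070475), a major urinary protein that carries pheromones, had FPKM of 0.243, 0.528 and 0.123 with vehicle, 0, 0.0615 and 0.328 in stressed WT cells and 1944, 1765 and 1631 in stressed CKO cells. It was the largest rise, 10.43 ± 0.14 (adjusted p = 7.1e-10). The Mup genes are nearly identical, so their split is uncertain, but the FPKM summed over 21 of them was 1097 to 1194 in WT DMSO, 1111 to 1454 in WT Tu and 6665 to 7318 in CKO Tu. Serpina1e, a member of the antitrypsin cluster with the same uncertainty, had FPKM of 101, 129.9 and 137 with vehicle, 130.3, 101 and 128 in stressed WT cells and 4015, 3819 and 3727 in stressed CKO cells. Cyp7b1, an oxysterol hydroxylase of bile acid synthesis, had FPKM of 1.13, 1.12 and 1.08 with vehicle, 1.4, 1.03 and 1 in stressed WT cells and 19.6, 18.9 and 21.7 in stressed CKO cells. Elovl3, an enzyme that lengthens fatty acids, had FPKM of 0.042, 0 and 0.0424 with vehicle, 0, 0.085 and 0 in stressed WT cells and 7.22, 6.52 and 6.24 in stressed CKO cells.

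Cyp2a4 (chromosome 7, 26307169 to 26315088), a steroid hydroxylase, had FPKM of 113, 121 and 130.3 with vehicle, 115, 137 and 158 in stressed WT cells and 0.11, 0.111 and 0.113 in stressed CKO cells. It showed the largest fall, 6.78 ± 0.11 (adjusted p = 9.2e-10), and its near copy Cyp2a5 fell by 2.33 ± 0.07. Cyp2b9 had FPKM of 12.7, 17.9 and 16 with vehicle and 18.9, 15.5 and 18.3 in stressed WT cells and was listed at 0 in all 3 CKO Tu libraries. Sult2a1, a sulfotransferase of steroids and bile acids in a cluster of similar genes, had FPKM of 7.63, 7.79 and 9.81 with vehicle and 6.41, 7.41 and 8.7 in stressed WT cells and was likewise listed at 0 in the CKO Tu libraries.

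**Figure D4:**
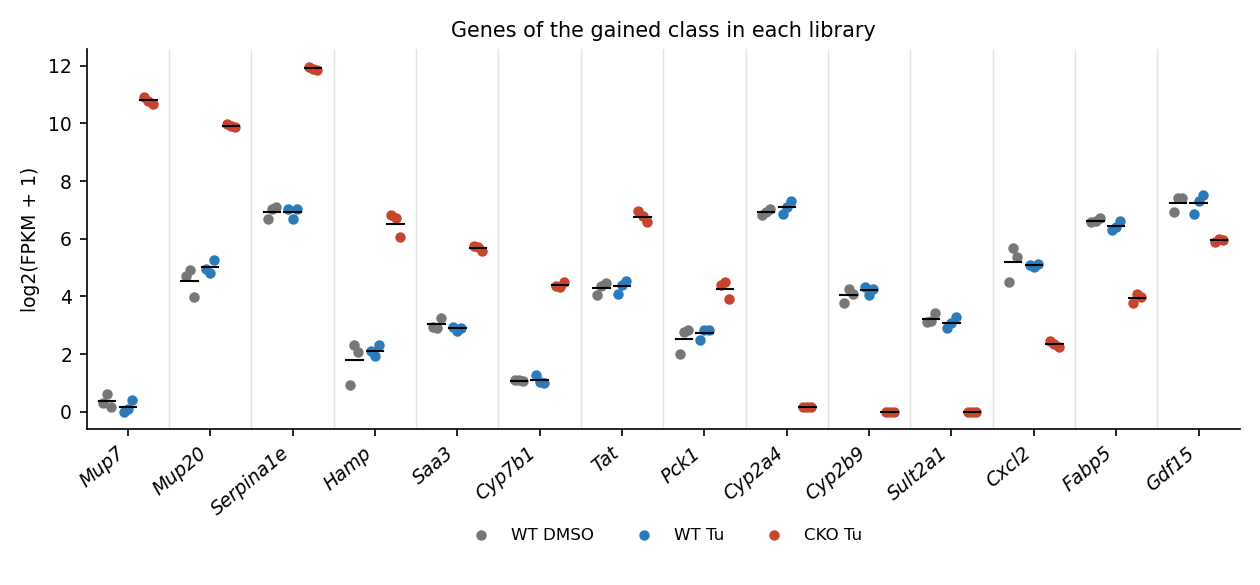
Levels as log2(FPKM + 1) in each of the 9 libraries for 14 genes of the gained class; points are libraries, coloured by group, and black lines group means. WT DMSO and WT Tu lie together, while CKO Tu lies above them for the 8 genes from Mup7 to Pck1 and below them for the 6 from Cyp2a4 to Gdf15.

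More cytochrome P450 genes fell than rose in CKO Tu. Of 53 described, 12 rose and 27 fell in CKO Tu. In WT Tu 9 rose and 7 fell (4 and 8 when scaled to total fragments). Several of the 53, Cyp2a4 and Cyp2b9 among them, are also counted among the male-biased or female-biased genes. Without all the sex-biased genes, 8 of 42 rose and 20 fell in CKO Tu. Cyp1a2, which oxidizes caffeine and arylamines, kept its fall, 0.94 ± 0.12 in CKO Tu and 0.87 ± 0.12 in WT Tu. Cyp2e1, which oxidizes ethanol, had FPKM of 132, 156 and 158 with vehicle, 100.5, 110.2 and 115 in stressed WT cells and 146, 135 and 123 in stressed CKO cells. It fell in WT Tu by 0.45 ± 0.09 (adjusted p = 0.006), and the CKO Tu difference was -0.14 ± 0.09 (adjusted p = 0.24). The difference between the stressed groups, 0.31 ± 0.09 (adjusted p = 0.027), was lost without WT Tu replicate 1 (0.25, adjusted p = 0.061), WT Tu replicate 2 (0.32, adjusted p = 0.054), CKO Tu replicate 1 (0.25, adjusted p = 0.1) or CKO Tu replicate 2 (0.31, adjusted p = 0.073). Among 51 conjugation and clearance genes, 15 rose and 18 fell in CKO Tu, and 24 were gained. Ces3a, a carboxylesterase, rose by 1.71 ± 0.07 (adjusted p = 3e-07).

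The prostanoid pathway, in which COX-2 acts, had 11 of its 24 listed genes among those described. Of these, 3 rose and 5 fell in CKO Tu (1 and 5 under upper-quartile scaling or scaling to total fragments). In WT Tu 2 rose and 2 fell. Over all the genes described, 25.8% rose and 24.8% fell in CKO Tu, and 17.7% rose and 16.5% fell in WT Tu. Whether the list differs from these shares was not tested. Ptges, the inducible prostaglandin E synthase, had FPKM of 0.862, 1.24 and 1.26 with vehicle, 0.608, 0.808 and 0.689 in stressed WT cells and 2.48, 2.69 and 1.89 in stressed CKO cells. The CKO Tu libraries lay above all others, by 0.66 ± 0.13 against WT DMSO (adjusted p = 0.0024). Abcc4, which exports prostaglandins and bile acids, had FPKM of 11.7, 9.68 and 9.7 with vehicle, 9.45, 10 and 11.4 in stressed WT cells and 2.44, 2.79 and 2.91 in stressed CKO cells, a fall of 1.61 ± 0.09 (adjusted p = 2.5e-06).

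The opposite class comprised 126 genes higher in CKO Tu and lower in WT Tu than in vehicle cells, and 85 the other way round. Hnf4a (chromosome 2, 163506808 to 163572910), the nuclear receptor that maintains hepatocyte identity, had FPKM of 12.2, 10.3 and 11.2 with vehicle, 5.56, 7.05 and 6.69 in stressed WT cells and 20.7, 20.2 and 18.4 in stressed CKO cells. The 3 groups did not overlap, with vehicle cells in the middle. The difference from WT DMSO was 0.76 ± 0.09 in CKO Tu (adjusted p = 0.00019) and -0.72 ± 0.09 in WT Tu (adjusted p = 0.00052), and CKO Tu exceeded WT Tu by 1.49 ± 0.09 (adjusted p = 1e-05). Leap2, a liver peptide that blocks the ghrelin receptor, had FPKM of 5.32, 5.94 and 5.96 with vehicle, 2.51, 4.07 and 3.95 in stressed WT cells and 18.5, 18.9 and 17.9 in stressed CKO cells, a difference of 2.13 ± 0.13 between the stressed groups (adjusted p = 7.9e-06). G6pc, the last enzyme of glucose release, had FPKM of 2.08, 1.71 and 1.71 with vehicle, 1.16, 1.24 and 1.49 in stressed WT cells and 16.2, 14.8 and 13.2 in stressed CKO cells. Its rise in CKO Tu was 2.47 ± 0.10 (adjusted p = 2.1e-07), but the WT Tu fall of 0.30 ± 0.10 (adjusted p = 0.039) was not called when any of WT DMSO replicates 1 to 3, WT Tu replicate 1 or 2 or CKO Tu replicate 2 was left out, with values of -0.33 to -0.24. It was also not called with voom on recovered fragments (-0.49, adjusted p = 0.11), with only the 2 groups compared in the fit (adjusted p = 0.079) or with no filter on low values (adjusted p = 0.095).

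In the other direction, Cyp2b10, a P450 induced by drugs, had FPKM of 21.3, 20 and 20.7 with vehicle, 31.4, 30 and 31.5 in stressed WT cells and 2.54, 2.41 and 1.93 in stressed CKO cells. It rose in WT Tu by 0.56 ± 0.08 (adjusted p = 0.00061) and fell in CKO Tu by 2.72 ± 0.08 (adjusted p = 2.7e-08). Il1rn, the interleukin-1 receptor antagonist, had FPKM of 7.16, 9.36 and 9.56 with vehicle, 13.6, 13.1 and 14 in stressed WT cells and 2.79, 2.89 and 2.38 in stressed CKO cells, so the groups again did not overlap. Its difference between CKO Tu and WT Tu was -1.98 ± 0.10 (adjusted p = 3.3e-06), while 15 of the 26 acute phase genes were higher in CKO Tu than in WT Tu. Atp13a4, a transport ATPase, was higher in WT Tu than in vehicle by 1.20 ± 0.11 and lower in CKO Tu by 0.66 ± 0.11.

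Across the lists, the medians of the stressed groups lay close together for the folding genes (2.71 and 2.64) and the N-glycosylation genes (0.31 and 0.35). The plasma protein medians were also close (-0.084 and -0.071), although 19 of the 47 genes were higher and 12 lower in CKO Tu than in WT Tu. For the male-biased genes they were 2.86 in CKO Tu and 0.00056 in WT Tu, over members that include those passing the filter through CKO Tu alone. The female-biased medians were -1.93 and 0.15, over members that include those passing it through WT DMSO alone. The acute phase medians were 0.90 and 0.049, and the cytokine medians -0.75 and -0.20. Oxidative phosphorylation, which makes mitochondrial ATP, had 1 gene that rose and 15 that fell among 36 in CKO Tu, and 1 and 4 in WT Tu (0 and 19 when scaled to total fragments).

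**Figure D5:**
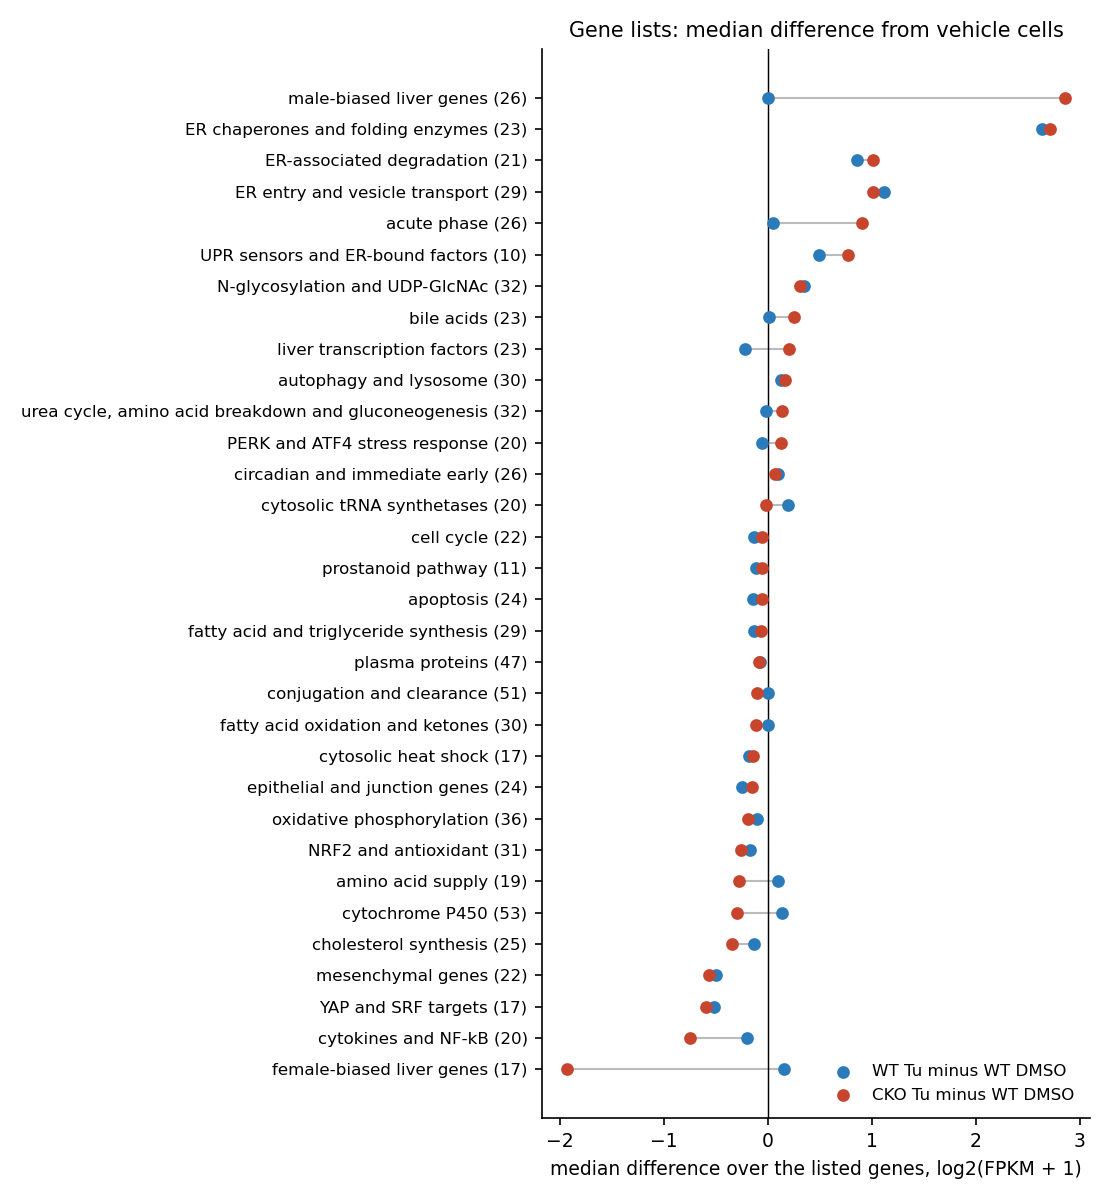
Median log2 difference from WT DMSO over the described members of each of 32 gene lists (number of members in brackets), for CKO Tu and WT Tu; positive values are higher than in vehicle cells. The 2 medians lie close together for the ER folding, ER entry and N-glycosylation lists and for the YAP and SRF targets. They lie apart for the sex-biased, acute phase and cytokine lists, among others. For the sensors and ER-bound factors they are 0.78 in CKO Tu and 0.49 in WT Tu.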

How the data were processed

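RNA-seq of primary mouse hepatocytes in 3 groups of 3 libraries was used. Total RNA was extracted with TRIzol, per the labels' protocols. The submitters' processing notes name HISAT2 2.2.1, featureCounts 1.5.0-p3 and mm10, and the gene annotation and strand setting are not given in the sources used here. The authors deposited FPKM per gene and library. FPKM multiplied by gene length fell on whole multiples of 1 fragment in every library (tolerance 0.001 fragments), which gave each library's fragments.

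Genes with an FPKM of at least 1 in at least 3 of the 9 libraries (11858) were fitted together with limma 3.58.1 in R 4.3.3: log2(FPKM + 1), a mean per group, a variance trend and Benjamini-Hochberg adjustment over all of them, called below 0.05. Fold changes on this scale understate the change of low genes. A gene can pass the filter through the group in which it is high, so counts over members are descriptions. The script was tested on simulated data. Promoters are RefSeq windows of GRCm38.p6, matched by symbol for 7863 of the 11152 genes.

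Named genes are a panel of 24, the 12 largest rises and falls, the 8 leading genes of each class and direction, and up to 5 per list. Named outside this rule are Dnajb11, for a promoter match, and, after their values were seen, Ero1l, P4hb, Dnajb9, Sil1, Dpagt1, Ppp1r15a, Slc7a1, Psat1, Nars, Il1r1, Socs3, Arg1, Cyp2a5, Cyp1a2, Fga, Fgb and Pecam1. The members and lists were chosen with earlier results of these data known. Alternatives were other pseudocounts, filters and scalings, voom on recovered fragments, only the compared groups, a replicate block, leaving out the sex-biased genes, and leaving out each library. One promoter sequence is not reported here.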

Additional observations from a re-analysis of the deposited data

Results flagged for a closer look

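Uty, Kdm5d, Ddx3y and Eif2s3y, on the Y chromosome, lie outside the genes compared and carried a signal that the control libraries lacked. Their fragments summed to 10608 over the 3 CKO Tu libraries and to 0 over the WT libraries, although the labels call all animals male.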

How the results depend on the processing

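With only the 2 groups of a comparison in the fit, the lost genes numbered 634 and those with a called difference between CKO Tu and WT Tu 419, against 1062 and 659. Leaving out 1 library at a time gave 2361 to 3235 genes higher and 2302 to 3194 lower in CKO Tu than in WT DMSO, 2841 to 3680 called in WT Tu, and 3198 to 4662 between CKO Tu and WT Tu. Kept genes then numbered 1923 to 2615, lost genes 801 to 1143 (518 to 629 with a called difference) and gained genes 2336 to 3583 (1531 to 2397 with one), and the Ptgs2 ratio was 0.134 to 0.342. A fit with the replicate number as a block called 2792 genes higher and 2674 lower in CKO Tu than in WT DMSO, 3545 in WT Tu and 4076 between the stressed groups, with 2388 kept, 984 lost (591) and 2905 gained (1972). Same-numbered libraries deviated from their group means with correlations of -0.097 to 0.021. These values show no pairing by number, but with 3 libraries per group they cannot exclude a shared animal or preparation. Among the named genes, no called direction reversed under the alternatives run. The 3 libraries of each group limit the precision, and the few fragments of low genes such as Ptgs2 limit what can be detected there.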

Other observations

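Cytosolic heat shock genes, which fold proteins outside the ER, moved apart from the ER chaperones: of 17 described, 2 rose and 8 fell in CKO Tu and 3 rose and 6 fell in WT Tu (1 and 10 when scaled to total fragments). Of 25 cholesterol synthesis genes, 6 rose and 14 fell in CKO Tu and 14 were in the kept class, which held 22.8% of all the genes described. Mvd, a decarboxylase of the mevalonate pathway, had FPKM of 6.45, 4.89 and 4.94 with vehicle, 12.5, 16.5 and 15.6 in stressed WT cells and 21.2, 22.9 and 22.5 in stressed CKO cells. Of 31 NRF2 and antioxidant genes, 6 rose and 16 fell in CKO Tu and 2 rose and 13 fell in WT Tu (0 and 18 when scaled to total fragments). Osgin1, an oxidative stress response gene, had FPKM of 832, 679 and 712 with vehicle, 313, 393 and 365 in stressed WT cells and 145, 140.1 and 140.5 in stressed CKO cells, a kept fall of 2.37 ± 0.10 in CKO Tu (adjusted p = 3e-07 from limma). Hmox1, heme oxygenase, had FPKM of 291, 431 and 407 with vehicle, 288, 330 and 348 in stressed WT cells and 996, 957 and 733 in stressed CKO cells.

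Of 24 apoptosis genes, 6 rose and 10 fell in CKO Tu. Bcl2l1, which encodes the survival protein Bcl-xL, fell by 0.98 ± 0.17 in CKO Tu (adjusted p = 0.0012 from limma). Of 30 autophagy and lysosome genes, 14 rose and 9 fell in CKO Tu and 12 rose and 6 fell in WT Tu. Of 22 cell cycle genes, 8 rose and 10 fell in CKO Tu. Beside these lists and those of the paragraph above, 25.8% of all the genes described rose and 24.8% fell in CKO Tu. In WT Tu the shares over all genes were 17.7% and 16.5%. Whether any list differs from them was not tested. Among the stellate cell markers, Reln had 150 fragments in WT DMSO, 129 in WT Tu and 2095 in CKO Tu, while Lrat, Des and Col1a1 had at most 9 in any group.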
